A study of Bos taurus with 10 samples.

Results

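Cell cycle and DNA replication genes were followed in cattle embryos as a list of 45 genes. Earlier results of these data were known when they were chosen, by gene symbol for their known role. A probe of that name stood on the array for 39 of the 45, among 25325 gene names in all. For each gene the probe with the highest mean signal over all arrays was used. A probe entered the tests when 2 or more arrays gave it a signal well above background, which left 33 of the 39 genes. Of the 45, MCM2, CDT1, TOP2A, MKI67, CENPA and MAD2L1 had no probe of that name and were not analysed here.

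The embryos were flushed on day 7 from superovulated cows, and total RNA of each sample was read on a 1-colour bovine oligonucleotide array. The groups were vehicle, labelled DMSO (2 arrays), senktide at 30 nmol/min for 2 h (4 arrays) and senktide at 300 nmol/min for 2 h (4 arrays). Senktide is a peptide that activates the neurokinin-3 receptor. It was given to the donor cow by vein, 48 h into superovulation, and the cows of all groups were inseminated at 108 and 120 h. The study asked whether this treatment bears on embryo quality and stage. The labels do not say how many cows or embryos a sample held, so the spread behind the p-values is that between these samples and may be technical.

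A cell copies its DNA by loading a ring of MCM proteins at each origin, unwinding the helix with it in S phase and filling the new strands from a pool of deoxynucleotides. Cyclins switch on the kinases that start each step, and mitosis follows once cyclin B and its kinase are active and the spindle checkpoint is satisfied. Cleavage-stage embryos divide rapidly on transcripts stored in the egg, and by the morula and blastocyst they rely on transcripts of their own genome.

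A level is given throughout as log2 of the array's processed signal relative to the 75th percentile of the 2491 probes that every one of the 10 arrays detected (well above background), so 0 is the level of a bright probe. A difference is given on the same log2 scale. Levels of different genes are not compared, since each comes from another probe.

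Each probe reads 60 bases. The probes of MCM6, CCNB2, CDC20 and UBE2C are shown because the differences between doses or between slides reported here rest on them, and that of RFC4 because it was well above background on every array. Each of these 5 probes is free of stop codons in at least 1 reading frame. They lie at chr2:64484680-64484739 (MCM6, plus strand), chr1:82284320-82284379 (RFC4, plus), chr10:51741435-51741494 (CCNB2, minus), chr3:109574830-109574889 (CDC20, minus) and chr13:75364411-75364967 (UBE2C, plus), in build Btau_3.1 as the files give it. The UBE2C interval is longer than its probe. The probes start at bases 2171, 1199, 1244, 1569 and 509 of their transcripts. They read, 5′ to 3′ and in lower case:
MCM6: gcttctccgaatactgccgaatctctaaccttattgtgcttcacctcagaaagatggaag
RFC4: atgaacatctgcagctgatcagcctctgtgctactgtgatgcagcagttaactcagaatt
CCNB2: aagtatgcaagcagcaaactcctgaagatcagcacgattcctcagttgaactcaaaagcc
CDC20: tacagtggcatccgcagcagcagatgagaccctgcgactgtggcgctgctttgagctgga
UBE2C: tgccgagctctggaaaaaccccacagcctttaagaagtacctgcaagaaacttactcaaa
A stretch of MCM4 is added because 3 overlapping probes of that gene share it. It spans chr14:19222341-19222364 on the plus strand, and capitals mark the 24 bases that all 3 hold.
MCM4 shared: CTAATGTGTAAAGCTTCTTCCTCA

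Detection came first, since it decides which of these genes can be read. Of the 39 genes, 16 were well above background on all 10 arrays: MCM4, MCM5, MCM7, GMNN, PCNA, RFC4, RRM1, RRM2, TYMS, CCND2, CDK2, CCNB1, CCNB2, CKS2, PLK1 and BUB3. Another 5 (CDC6, CCND1, CCNE2, BIRC5 and CDKN1C) were so on none, and 18 on some, POLA1 among them on 1. The genes well above background numbered 17 and 19 on the vehicle arrays. They numbered 22, 18, 32 and 31 on the 30 nmol/min arrays and 21, 24, 31 and 32 on the 300 nmol/min arrays.

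These counts followed the slide. Slides 1 and 2 each held replicate 1 or replicate 2 of all 3 groups, while slide 3 held no vehicle array, only replicates 3 and 4 of each dose. On slide 3 the count lay between 31 and 32 genes, against 17 to 24 on slides 1 and 2. Over all spots of the array, 18.3% to 19.6% were well above background on slide 3, against 7.17% to 13.2% on slides 1 and 2. The lowest signal called well above background lay between -5.44 and -5.27 on slide 3, against -3.71 to -2.56 on slides 1 and 2. Detection on the senktide arrays of slide 3 therefore cannot be told apart from the slide. Within slide 1 the counts were 22 at 30 nmol/min and 21 at 300 nmol/min, against 17 on the vehicle array, and within slide 2 they were 18 and 24, against 19. CCND3 was detected on the 300 nmol/min arrays of slides 1 and 2 and on neither vehicle array, and on these slides CDK4 and CKS1B were detected on replicate 1 at 30 and replicate 2 at 300 nmol/min alone. MCM6, AURKB, BUB1B and CDKN1B were detected on all 4 slide 3 arrays and on no other, which is 12.1% of the 33 tested genes, beside 17.9% of all tested probes.

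**Figure D1:**
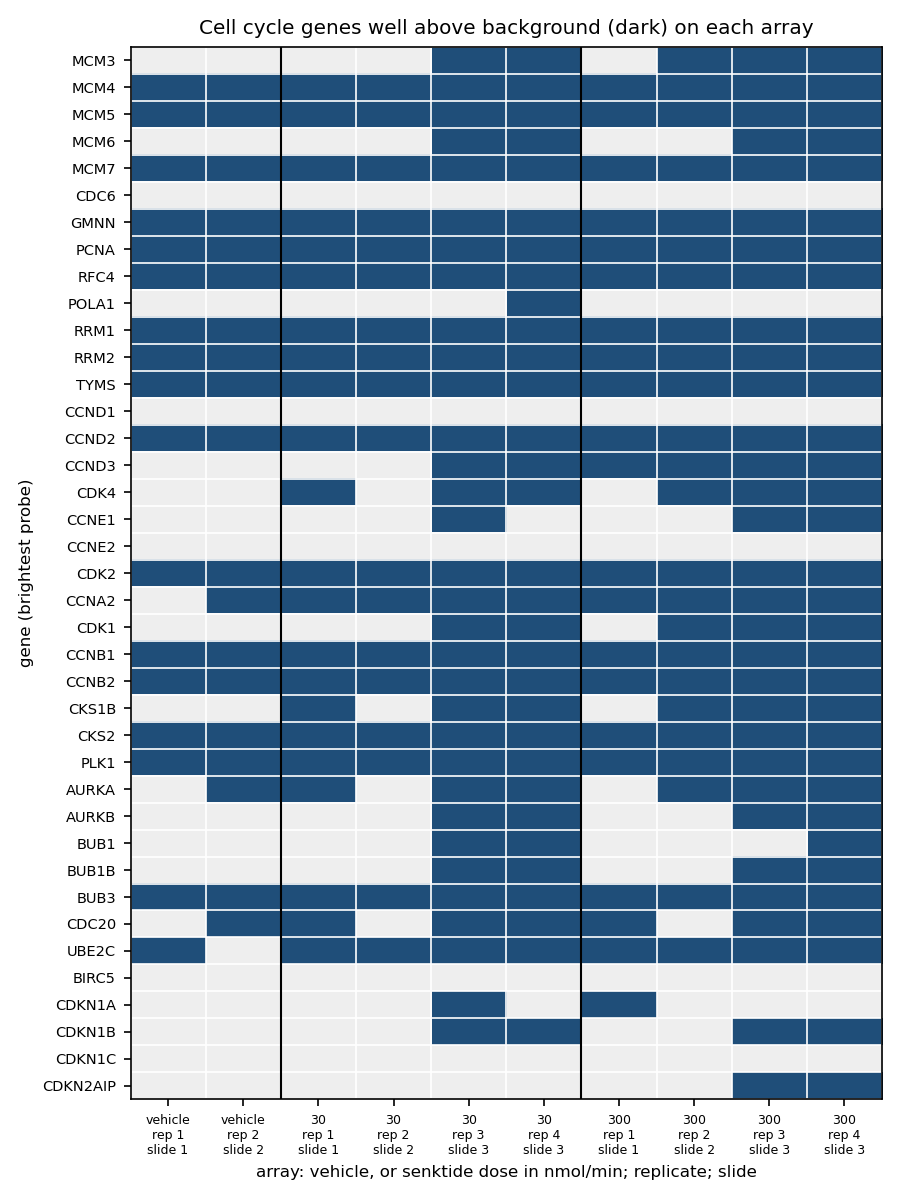
Detection of the 39 cell cycle genes with a probe (rows) on each of the 10 arrays (columns, with group, replicate and slide); dark cells are well above background and pale cells are not. The slide 3 columns hold 31 or 32 dark cells and the other columns 17 to 24.

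The labels call the tissue embryos, but their extraction text names endometrial samples. KRT8, KRT18, GATA2, GATA3 and TFAP2C of the trophectoderm and SOX2 of the inner cell mass were detected on all 10 arrays, while CDX2 and NANOG were so on none and POU5F1 on 4. All 5 cumulus cell markers were on no array, and of 6 oocyte markers ZP3 alone was detected, on 2 arrays. Of the leukocyte markers LYZ was on 10 arrays, PTPRC on 5 and ITGB2 on 4, with CD68 and S100A8 on none; HBA was on 4 and HBB on none. CLU was on 7 arrays, MUC1 on 1 and OVGP1 and PGR on none, and of the stromal markers COL1A2 was on 3 and COL1A1, COL3A1 and VIM on none. The part of these cells in the dose differences was not tested. In whole embryos, fewer cycling cells and less RNA per cell cannot be told apart.

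None of the 33 tested genes passed the limma test at either dose, which does not show that their levels were equal. The test was limma on all 10 arrays, with Benjamini-Hochberg adjustment over the 8935 tested probes and a threshold of 0.05. At 300 nmol/min against vehicle 0 of the 33 genes passed, where 0.0112% of all tested probes did, and the smallest adjusted p was 0.172. At 30 nmol/min against vehicle 0 passed, where 0% of probes did, with a smallest adjusted p of 0.288. Between 300 and 30 nmol/min 0 passed, where 0% of probes did, and the smallest adjusted p was 0.999.

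Unadjusted p-values under 0.05 were no more frequent among these genes than on the whole array in the comparisons with vehicle. There were 3 of 33 (9.09%) at 300 nmol/min against vehicle, beside 13.8% of all tested probes. At 30 nmol/min there were again 3 of 33, beside 11.3% of probes. Between the doses there were 2 of 33 (6.06%), beside 3.00% of probes. The comparisons with vehicle share both vehicle arrays, so their values are not independent.

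The median difference of the 33 genes was -0.09 at 300 nmol/min against vehicle, beside -0.11 over all tested probes, with 12 genes higher and 21 lower. At 30 nmol/min it was -0.08, beside -0.11, again with 12 higher and 21 lower. Between 300 and 30 nmol/min it was -0.04, beside -0.01, with 13 higher and 20 lower. These directions depended on the scaling: with the 75th percentile of all probes in place of the detected ones, the median of all tested probes moved to 1.06 at 300 nmol/min and 0.95 at 30 nmol/min against vehicle, and 32 and 31 of the 33 genes came out higher. Relative to the median of all tested probes, 20 of the 33 lay above it at 300 nmol/min and 18 at 30 nmol/min. The change of scaling to all probes shifts all probes alike, so it cannot change these counts. Quantile normalization does not shift all probes alike. Under it 12 of the 33 lay above that median at 300 nmol/min and 12 at 30 nmol/min. With normexp background correction before it, 13 and 15 did.

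For the 16 genes detected on every array the 95% intervals were read on the main scale, relative to the detected probes. All 16 of the 95% intervals held 0 in each of the 3 comparisons. In 13 of the 16 genes the interval at 300 nmol/min against vehicle lay wholly within 1 log2 unit (2-fold) of no difference, as in 14 at 30 nmol/min and 14 between the doses. The exceptions were CDK2 and CCNB2 in all 3 comparisons and CKS2 at 300 nmol/min. These intervals hold for that scale: with the 75th percentile of all probes, all 16 genes came out higher than vehicle at both doses, with a median of 1.06 at 300 nmol/min, where the 2491 probes on all arrays had 1.12, and of 0.99 for 30 nmol/min, where they had 1.00. The spread between arrays of a group was widest for the first 2 of these: the within-group SD was at most 0.30 for 14 of the 16, and 0.69 for CDK2 and 0.67 for CCNB2. Over the 33 genes it ran between 0.11 for TYMS and 1.08 for CDKN1A.

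**Figure D2:**
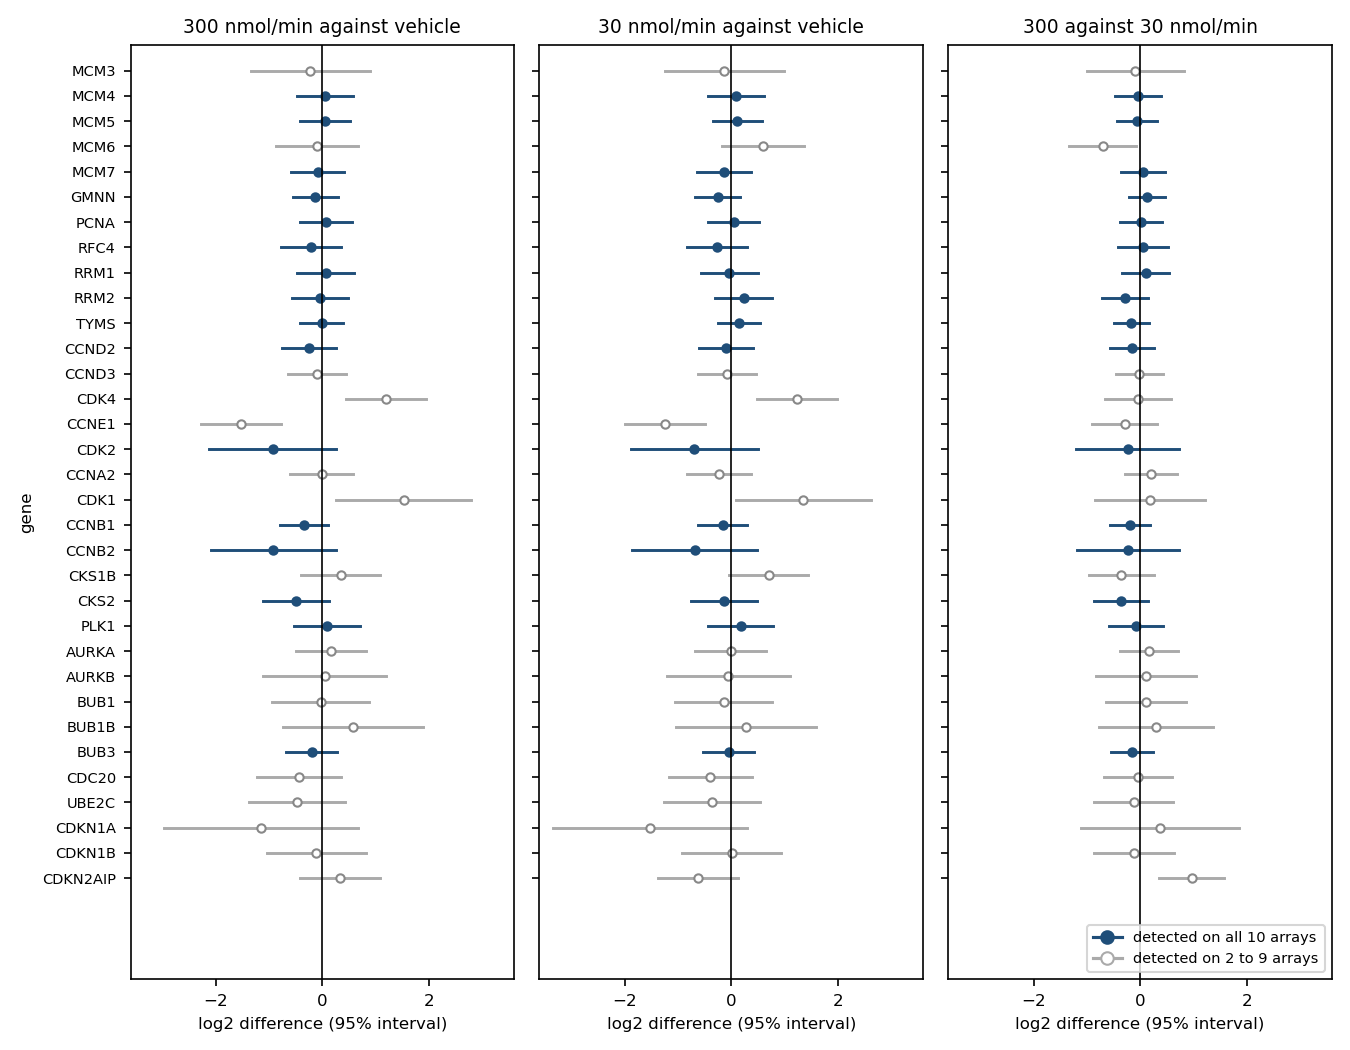
Differences in log2 signal (points) with 95% intervals (lines) for the 33 tested genes, in the 3 comparisons; filled dark symbols are genes detected on all 10 arrays and open grey ones those detected on 2 to 9. All filled intervals cross 0. The intervals of CCNE1, CDK4 and CDK1, which no vehicle array detected, do not in the comparisons with vehicle.

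The MCM proteins form the hexameric helicase that unwinds DNA at the fork. MCM4 lay at -1.16 and -0.52 on vehicle arrays, at -0.85, -0.58, -0.59 and -0.96 at 30 nmol/min and at -0.85, -0.90, -0.85 and -0.54 at 300 nmol/min. MCM5 lay at -1.34 and -1.63 on vehicle arrays, at -1.33, -1.44, -1.20 and -1.52 at 30 nmol/min and at -1.71, -1.45, -1.25 and -1.33 at 300 nmol/min. MCM7 lay at -1.04 and -0.56 on vehicle arrays, at -1.06, -0.99, -0.81 and -0.89 at 30 nmol/min and at -1.18, -0.98, -0.64 and -0.74 at 300 nmol/min. The groups overlapped for all 3 genes, and their differences from vehicle lay between -0.14 and 0.11. MCM3 was detected on 5 arrays, with levels between -4.31 and -2.58.

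MCM6, another subunit of the ring, was 1 of the 2 genes with an unadjusted p under 0.05 between the doses. It lay at -4.45 and -3.90 on vehicle arrays, at -3.58, -3.40, -3.49 and -3.81 at 30 nmol/min and at -5.11, -4.10, -3.98 and -3.90 at 300 nmol/min. All 4 arrays at 300 nmol/min lay below all 4 at 30 nmol/min, but only the slide 3 arrays of each dose were well above background. The difference of 300 from 30 nmol/min was -0.70 ± 0.28 (SE; limma adjusted p = 0.999). Within slide 1 it was -1.53, within slide 2 -0.70 and within slide 3, where the probe was detected, -0.29.

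Of the genes that load or restrain the helicase, CDC6, a loader, was on no array. GMNN encodes geminin, which blocks reloading after S phase. GMNN lay at -0.13 and -0.08 on vehicle arrays, at -0.26, -0.31, -0.50 and -0.38 at 30 nmol/min and at -0.11, -0.06, -0.40 and -0.38 at 300 nmol/min. The 30 nmol/min arrays all lay below the vehicle arrays, while those at 300 nmol/min overlapped them; the within-group SD was 0.13.

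At the fork, PCNA is the sliding clamp, RFC4 a subunit of the clamp loader and POLA1 the polymerase that extends primers. PCNA lay at -0.88 and -0.41 on vehicle arrays, at -0.59, -0.31, -0.76 and -0.73 at 30 nmol/min and at -0.71, -0.62, -0.47 and -0.52 at 300 nmol/min. RFC4 lay at -2.07 and -1.67 on vehicle arrays, at -2.20, -2.24, -1.995 and -2.11 at 30 nmol/min and at -2.45, -1.66, -1.92 and -2.31 at 300 nmol/min. Both overlapped across the 3 groups. POLA1 was well above background on 1 array of the 30 nmol/min group and was not tested.

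Deoxynucleotides are made by ribonucleotide reductase, with RRM1 as its large and RRM2 as its small subunit, and by TYMS, the thymidylate synthase. RRM1 lay at -1.10 and -1.11 on vehicle arrays, at -0.97, -0.96, -1.33 and -1.32 at 30 nmol/min and at -1.08, -0.65, -1.04 and -1.40 at 300 nmol/min. RRM2 lay at -1.37 and -1.70 on vehicle arrays, at -1.12, -1.24, -1.46 and -1.39 at 30 nmol/min and at -1.63, -1.27, -1.98 and -1.45 at 300 nmol/min. TYMS lay at -0.44 and -0.27 on vehicle arrays, at -0.15, -0.32, -0.21 and -0.15 at 30 nmol/min and at -0.44, -0.26, -0.50 and -0.28 at 300 nmol/min. All groups overlapped for these 3 genes. RRM2, among the 5 genes with the smallest p between the doses, was -0.28 ± 0.19 (SE) at 300 against 30 nmol/min (limma adjusted p = 0.999), with -0.51, -0.03 and -0.29 within slides 1, 2 and 3.

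Entry into S phase depends on D-type cyclins with CDK4 and on cyclins E and A with CDK2. Of the D-type cyclins CCND2 was on every array, CCND3 on 6 and CCND1 on none, and of the E-type cyclins CCNE1 was on 3 arrays and CCNE2 on none. CCND2 lay at 0.17 and 0.27 on vehicle arrays, at 0.08, 0.06, 0.16 and 0.21 at 30 nmol/min and at 0.07, -0.47, 0.29 and -0.01 at 300 nmol/min. CDK2 lay at -2.09 and -2.67 on vehicle arrays, at -2.99, -2.05, -3.94 and -3.33 at 30 nmol/min and at -2.93, -2.61, -3.96 and -3.77 at 300 nmol/min. The groups overlapped for both genes, and the 4 lowest CDK2 values were those of slide 3. CCND3 had levels between -3.30 and -2.60, and CCNA2, encoding cyclin A, between -2.94 and -2.03 with detection on 9 arrays.

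CCNE1 and CDK4 had the smallest p-values against vehicle at both doses, and neither was well above background on a vehicle array. CCNE1 lay at -3.67 and -3.75 on vehicle arrays, at -5.54, -4.77, -4.50 and -4.97 at 30 nmol/min and at -5.51, -5.67, -4.86 and -4.90 at 300 nmol/min. CDK4 lay at -3.80 and -4.76 on vehicle arrays, at -3.36, -3.04, -2.91 and -2.88 at 30 nmol/min and at -3.57, -3.28, -2.82 and -2.65 at 300 nmol/min. All senktide values were below both vehicle values for CCNE1 and above both for CDK4, so the groups did not overlap.

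The CCNE1 difference from vehicle was -1.53 ± 0.33 at 300 nmol/min (SE; limma adjusted p = 0.172) and -1.24 ± 0.33 at 30 nmol/min (limma adjusted p = 0.288). With slide as a block it was -1.81 and -1.52. At 300 nmol/min it was -1.84 within slide 1 and -1.92 within slide 2, and at 30 nmol/min -1.88 and -1.02. Under normexp background correction with quantile normalization it turned to 0.015 at 300 nmol/min, and to 0.055 for the lower dose. No array of slides 1 and 2 detected CCNE1, so its within-slide values compare signals not well above background. Its difference from vehicle is therefore a description. The 5 genes detected on no array also averaged lower at both doses than on vehicle arrays. Of these, CDC6 averaged -6.42 at 300 and -6.09 at 30 nmol/min, against -4.98 on vehicle arrays.

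The CDK4 difference from vehicle was 1.20 ± 0.34 at 300 nmol/min (SE; limma adjusted p = 0.230) and 1.23 ± 0.34 at 30 nmol/min (limma adjusted p = 0.288). With slide as a block it was 0.95 and 0.98. It was uneven between slides, at 0.23 and 1.47 within slides 1 and 2 for 300 nmol/min and 0.44 and 1.72 for 30 nmol/min. Under quantile normalization it was 2.22 and 2.18 with limma adjusted p of 0.028 and 0.036, the 1 member called in each of those fits. CDK4 entered the test only through the senktide groups, where it was higher, so its differences are a description and these calls no support. The background limit of the vehicle arrays is the higher of the lowest signal called well above background and the probe's own signal, averaged over those arrays. Against that limit no fold could be given for CDK4, as the senktide mean lay below it. A second CDK4 probe, 14 bases further along the transcript and sharing 46 of its 60 bases, gave 0.47 at 300 and 0.45 at 30 nmol/min against vehicle.

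**Figure D3:**
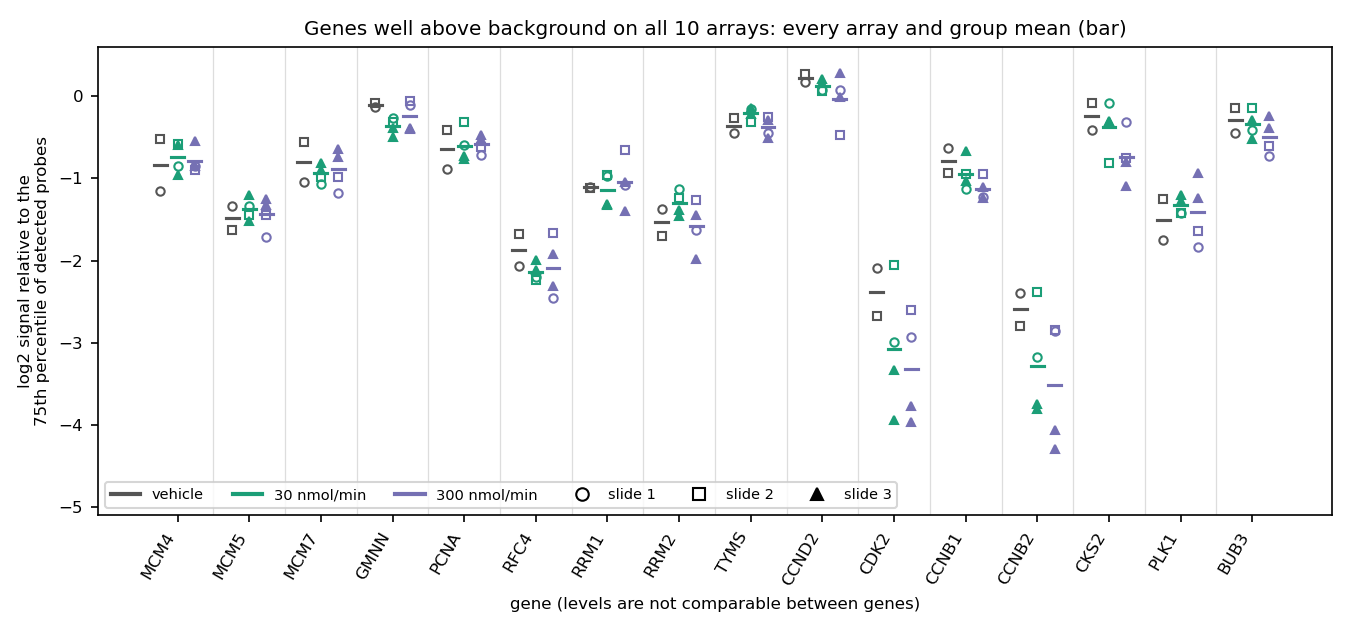
Log2 signal of the 16 genes detected on all 10 arrays: each symbol is an array, coloured by group (vehicle, 30 and 300 nmol/min, left to right within a gene) and shaped by slide, and bars are group means. Most genes sit within a narrow band in all groups, while CDK2 and CCNB2 have their lowest values on slide 3 (filled triangles).

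Mitosis is driven by CDK1 with the B-type cyclins CCNB1 and CCNB2, with CKS1B and CKS2 as small subunits of the kinase. CDK1 lay at -4.44 and -5.60 on vehicle arrays, at -4.27, -4.25, -2.89 and -3.26 at 30 nmol/min and at -4.59, -3.08, -3.18 and -3.11 at 300 nmol/min. It was well above background on the 4 slide 3 arrays and on replicate 2 at 300 nmol/min, and on no vehicle array. CDK1 thus entered the test only through the senktide groups, where its mean was higher, so its differences are a description. The difference from vehicle was 1.53 ± 0.56 at 300 nmol/min (SE; limma adjusted p = 0.302), with overlapping groups, and 1.35 ± 0.56 at 30 nmol/min (limma adjusted p = 0.424). At 300 nmol/min it was -0.15 within slide 1 and 2.52 within slide 2, and at 30 nmol/min 0.17 and 1.34.

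With slide as a block the CDK1 difference was 1.06 at 300 nmol/min and 0.88 at 30 nmol/min. CCNB1 lay at -0.63 and -0.93 on vehicle arrays, at -1.12, -0.95, -1.03 and -0.67 at 30 nmol/min and at -1.23, -0.95, -1.23 and -1.10 at 300 nmol/min. CCNB2 lay at -2.39 and -2.79 on vehicle arrays, at -3.17, -2.39, -3.75 and -3.81 at 30 nmol/min and at -2.85, -2.85, -4.06 and -4.30 at 300 nmol/min. The 300 nmol/min values of both cyclins lay below both vehicle values, while at 30 nmol/min the groups overlapped. The CCNB2 difference at 300 nmol/min against vehicle was -0.92 ± 0.52 (SE; limma adjusted p = 0.431), and with slide as a block it was -0.34. Within slides 1 and 2 it was -0.46 and -0.06.

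CKS2 lay at -0.41 and -0.08 on vehicle arrays, at -0.08, -0.81, -0.30 and -0.31 at 30 nmol/min and at -0.31, -0.75, -1.09 and -0.80 at 300 nmol/min. Its difference was -0.49 ± 0.28 at 300 nmol/min against vehicle (SE; limma adjusted p = 0.425) and -0.36 ± 0.22 at 300 against 30 nmol/min (limma adjusted p = 0.999), with overlap in both. Within slides 1 and 2 the first was 0.09 and -0.66, and within slides 1, 2 and 3 the second was -0.24, 0.07 and -0.64. CKS2 thus had no common direction across slides in either comparison.

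CKS1B lay at -3.01 and -3.46 on vehicle arrays, at -2.32, -2.97, -2.58 and -2.27 at 30 nmol/min and at -3.53, -2.54, -2.51 and -2.98 at 300 nmol/min. It was not well above background on the vehicle arrays, and on 3 of 4 arrays at each dose it was. Its difference from vehicle at 30 nmol/min was 0.70 ± 0.33 (SE, limma adjusted p = 0.465). CKS1B entered the test only through the senktide groups, where it was higher, so this difference is a description and no fold is given. At 300 against 30 nmol/min the CKS1B difference was -0.35 ± 0.27 (SE, limma adjusted p = 0.999), with -1.21, 0.44 and -0.32 within slides 1, 2 and 3.

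Among the mitotic kinases, PLK1 acts from entry to exit, AURKA at the spindle poles and AURKB at centromeres. PLK1 lay at -1.75 and -1.25 on vehicle arrays, at -1.42, -1.42, -1.27 and -1.20 at 30 nmol/min and at -1.84, -1.63, -0.93 and -1.24 at 300 nmol/min. AURKB lay at -4.75 and -4.63 on vehicle arrays, at -5.29, -5.12, -4.29 and -4.29 at 30 nmol/min and at -5.76, -4.87, -3.87 and -4.08 at 300 nmol/min. All groups overlapped for both, and AURKB was well above background on slide 3 only. AURKA was on 7 arrays, with levels between -4.03 and -3.08.

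The spindle checkpoint holds anaphase until chromosomes are attached, through BUB1, BUB1B and BUB3. BUB3 lay at -0.44 and -0.14 on vehicle arrays, at -0.42, -0.14, -0.52 and -0.28 at 30 nmol/min and at -0.73, -0.60, -0.24 and -0.39 at 300 nmol/min, with overlapping groups. BUB1 was on 3 arrays and BUB1B on 4, with levels between -4.46 and -3.10 and between -5.70 and -3.86. Release from the checkpoint runs through CDC20, the activator of the anaphase-promoting complex, and UBE2C, the ubiquitin-conjugating enzyme that works with it.

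CDC20 lay at -3.52 and -2.64 on vehicle arrays, at -3.57, -3.98, -3.13 and -3.21 at 30 nmol/min and at -3.46, -4.04, -3.30 and -3.27 at 300 nmol/min. UBE2C lay at -2.35 and -2.93 on vehicle arrays, at -2.68, -2.34, -3.46 and -3.50 at 30 nmol/min and at -2.72, -2.77, -3.51 and -3.48 at 300 nmol/min. Both genes overlapped between the groups and separated slide 3 from slides 1 and 2 within each dose. BIRC5, a partner of AURKB at centromeres, was on no array.

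None of the inhibitors of cyclin-dependent kinases was detected on more than 4 arrays. CDKN1A lay at -2.97 and -3.80 on vehicle arrays, at -4.04, -5.02, -4.81 and -5.78 at 30 nmol/min and at -3.10, -3.58, -5.26 and -6.20 at 300 nmol/min. A single array of each dose and no vehicle array detected it. The difference at 30 nmol/min against vehicle was -1.53 ± 0.81 (SE; limma adjusted p = 0.485), with no overlap, and within slides 1 and 2 it was -1.07 and -1.22. With slide as a block it was -0.74. No vehicle or 30 nmol/min array of slides 1 and 2 detected CDKN1A, so these within-slide values compare signals not well above background. CDKN1B was on the 4 slide 3 arrays alone and CDKN1C on none.

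CDKN2AIP, whose product binds the tumour suppressor ARF, had the smallest p between the doses, under 0.05 before adjustment. CDKN2AIP lay at -4.28 and -4.78 on vehicle arrays, at -5.51, -4.83, -4.92 and -5.37 at 30 nmol/min and at -4.20, -3.54, -4.41 and -4.62 at 300 nmol/min. All 4 values at 300 nmol/min lay above all 4 at 30 nmol/min, though only replicates 3 and 4 at 300 nmol/min were well above background. The difference of 300 from 30 nmol/min was 0.96 ± 0.27 (SE; limma adjusted p = 0.999), with 1.30, 1.30 and 0.63 within slides 1, 2 and 3. The probe entered the test only through 300 nmol/min, where it was higher, so its values are a description and no fold is given.

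Counted over the 33 genes, 4 had groups that did not overlap at 300 nmol/min against vehicle (CDK4, CCNE1, CCNB1 and CCNB2), beside 25.5% of all tested probes. At 30 nmol/min against vehicle 8 did not overlap (MCM6, GMNN, CDK4, CCNE1, CDK1, CKS1B, CDKN1A and CDKN2AIP), beside 19.5% of all tested probes. Between the doses 2 did not (MCM6 and CDKN2AIP), beside 2.70%. Of those 8 genes, all except GMNN were not well above background on either of the 2 vehicle arrays. Fitting 300 against 30 nmol/min with replicate number as a block, 1 probe on the array passed and still 0 of the 33 genes.

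Within the senktide groups the slide gave more calls than the dose did, among these genes as over all tested probes. Slide 3 was compared with the mean of slides 1 and 2 over the 8 senktide arrays, with dose in the fit. Here 7 of the 33 genes passed, 3 higher and 4 lower on slide 3, beside 17.9% of all tested probes, of which 4.06% were higher and 13.8% lower. Slide and scan marked the same arrays, and replicates 3 and 4 lay on no other slide, so slide, scan and any difference between the embryos of those replicates cannot be told apart.

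The higher genes were AURKB, CDK1 and CDC20. Mitotic genes went both ways, as CCNB2 and UBE2C were among the lower ones. AURKB averaged -4.13 on slide 3 and -5.26 on slides 1 and 2, a difference of 1.13 ± 0.18 (SE; limma adjusted p = 0.0054). CDK1 averaged -3.11 on slide 3 and -4.05 on slides 1 and 2, a difference of 0.94 ± 0.26 (SE; limma adjusted p = 0.045), with overlap. CDC20 averaged -3.23 on slide 3 and -3.76 on slides 1 and 2, a difference of 0.54 ± 0.13 (SE; limma adjusted p = 0.031). CDK1 on 3 and CDC20 on 2 of the 4 senktide arrays of slides 1 and 2 were not well above background. AURKB was well above background on none of those 4 and entered the test only through slide 3, where it was higher, so its difference is a description and its call no support. Over all tested probes, 294 of the 363 higher calls were likewise on no array of slides 1 and 2.

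The lower genes were CCNB2, CDK2, UBE2C and CDKN1A. CCNB2 averaged -3.98 on slide 3 and -2.82 on slides 1 and 2, a difference of -1.16 ± 0.18 (SE; limma adjusted p = 0.0046). CDK2 averaged -3.75 on slide 3 and -2.64 on slides 1 and 2, a difference of -1.11 ± 0.19 (SE; limma adjusted p = 0.0073). UBE2C averaged -3.49 on slide 3 and -2.63 on slides 1 and 2, a difference of -0.86 ± 0.14 (SE; limma adjusted p = 0.0064). Every slide 3 value of these 3 genes lay below every other senktide value. CDKN1A averaged -5.51 on slide 3 and -3.93 on slides 1 and 2, a difference of -1.58 ± 0.41 (SE; limma adjusted p = 0.038), with overlap and detection on 2 arrays. Detection was on 1 slide 3 array and 1 other, so most of the values compared were not well above background. The CDKN1A difference is therefore a description.

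CCNB2, CDK2 and UBE2C turned sign under both scalings to all probes, and CDKN1A under that to the median. These scalings add a common shift to every gene, under which higher genes cannot turn. Scaling to all probes, by their 75th percentile or their median, moved the median of all tested probes to 1.42 and 1.73, and CCNB2 to 0.33 and 0.63, CDK2 to 0.38 and 0.69 and UBE2C to 0.63 and 0.93. The CDKN1A difference became -0.09 and 0.22. Relative to the median of all tested probes, AURKB, CDK1 and CDC20 were higher and CCNB2, CDK2, UBE2C and CDKN1A lower. A common shift cannot change these positions. Markers of other cells also differed on slide 3: CLU by -1.41 (limma adjusted p = 0.010), COL1A2 by -1.77 (limma adjusted p = 0.0020) and PTPRC by 1.27 (limma adjusted p = 0.023). LYZ differed by -0.19 (limma adjusted p = 0.459), and the cumulus markers and VIM were on no array. Their part in the slide 3 result was not tested. The calls of CCNB2, CDK2, UBE2C and AURKB held without each senktide array in turn, that of CDC20 was lost without any 1 of the 8 (adjusted p 0.050 to 0.107), that of CDK1 without any except 300 nmol/min replicate 2 and that of CDKN1A without any except 30 nmol/min replicates 2 and 3.

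**Figure D4:**
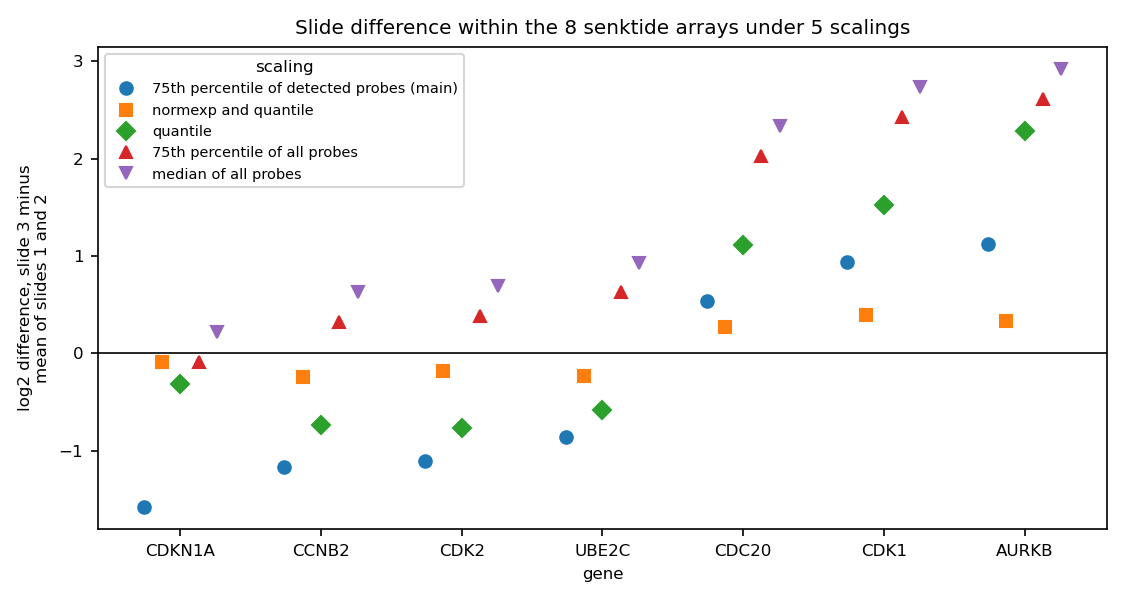
Log2 difference between slide 3 and the mean of slides 1 and 2 in the 8 senktide arrays for the 7 genes past the threshold, under 5 scalings (symbols). AURKB, CDK1 and CDC20 lie above 0 under all 5, while CCNB2, CDK2 and UBE2C lie above 0 under the scalings to all probes and below it under the others.

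A gene's second probe showed how far a difference depends on the probe. In 12 of the genes a further tested probe gave 15 pairs with the brightest probe. The pairs had the same sign in 8 of 15 at 300 nmol/min against vehicle, 11 at 30 nmol/min, 7 between the doses and 8 for slide 3. The median gap between probes of a pair was 0.42 at 300 nmol/min and 0.40 at 30 nmol/min against vehicle, and 0.13 between the doses. The widest gap at 300 nmol/min was 1.12, between CCNA2 probes.

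The overlapping MCM4 probes gave 0.06, 0.47 and -0.05 at 300 nmol/min against vehicle in order along the transcript, and all 3 were detected on every array. For CDK2 a second probe starting 4 bases before the first gave -1.07 at 300 nmol/min against vehicle, beside -0.93, and -0.88 for slide 3, beside -1.11. For CCNB1 the second probe gave -0.25 beside -0.35. For GMNN it gave 0.80 beside -0.13, and for BUB3 -0.79 beside -0.20. Probe pairs of CDK2 and CCNB1 thus ran together, while those of GMNN ran in opposite directions. These pairs are unlike. The CDK2 probes overlap, and the CCNB1 probes are assigned to different transcripts. Those of GMNN start at bases 781 and 908 and do not overlap.

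Position along the transcript was shared by these probes. Among 19 genes with several probes on 1 transcript, the probe detected on most arrays was the last along the transcript in 15 (78.9%), beside 78.7% of 3289 genes on the whole array. PCNA was an exception, with a probe at base 1083 on 10 arrays and one at base 1789 on 2.

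The rest of the cell cycle machinery was read from 138 further genes in 7 lists, of which 131 had a probe, 82 were tested and 26 were on all 10 arrays. In the limma comparisons with vehicle and between the doses 0 of the 82 passed. Unadjusted p-values under 0.05 numbered 15 for 300 nmol/min against vehicle, 10 for 30 nmol/min against vehicle and 1 between the doses, where 13.8%, 11.3% and 3.00% of all tested probes had one. Their median difference was -0.14 at 300 nmol/min and -0.06 at 30 nmol/min against vehicle, beside -0.11 over all tested probes in both. At 300 nmol/min against vehicle 40.7% of all tested probes were higher. Polymerases and fork proteins had 12 of 16 higher (median 0.24), E2F, RB and DREAM genes 2 of 4 (0.07), and origin recognition and firing 4 of 10 (-0.09). Of the higher fork genes, CHAF1A, TIPIN, RFC5, POLE3 and POLE2 were on no vehicle array. They entered the test only through the senktide groups, so this list's count is a description. Among its genes on all 10 arrays, RPA1, POLE4, TOP1 and LIG1 were higher and POLD2, FEN1 and RPA2 lower. Other lists held genes on no vehicle array too, such as E2F4. Checkpoint kinases and phosphatases had 4 of 14 higher (-0.16), kinetochore and spindle 6 of 18 (-0.20), cohesin and condensin 2 of 9 (-0.24) and the anaphase-promoting complex 4 of 11 (-0.39). Scaling to the 75th percentile of all probes adds over 1 log2 unit to each of these medians.

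CHAF1A, which assembles histones onto new DNA, had the smallest p of the 7 lists (limma adjusted p = 0.100 at 300 nmol/min and 0.185 at 30 nmol/min against vehicle). It was on the 4 slide 3 arrays alone and on no vehicle array, so it entered the test only through the groups where it was higher, and no difference is given. GINS1, a helicase cofactor on all 10 arrays, was 0.79 ± 0.27 at 300 nmol/min against vehicle (SE; limma adjusted p = 0.278). UBE2S, which extends ubiquitin chains for the anaphase-promoting complex, was -0.59 ± 0.21 (SE; limma adjusted p = 0.278) and was also on all 10 arrays. For slide 3, 15 of the 82 passed, 5 higher and 10 lower, beside the 17.9% of all probes. All 5 higher genes were on no array of slides 1 and 2 and entered the test only through slide 3, so their calls are no support. The lower ones included TOPBP1, which starts origin firing, at -1.27 (limma adjusted p = 0.0041).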

How the data were processed

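Sample titles gave the groups and replicate numbers. The genes and lists were chosen with earlier results of these data known. Each deposited scanner file holds 1 array's spot intensity. The file headers name Agilent Feature Extraction 11.5.1.1; the version in the submitters' processing notes is 10.5.1.1. Processed intensity had its background subtracted by the authors within an array, per the file headers, with no scaling across arrays. The flags of the deposited files, other values coded 0 or 1, gave the spots well above background; 0 spots were saturated and no probe of these genes had an outlier spot. The deposited series matrix holds log2 values. Taking log2 processed signal, subtracting the 75th percentile of all probes of an array and then each probe's median gave the same values within 0.05 for at least 99.98% of values, so scale, centring and direction are known. The median of its columns was 0.22 and 0.12 for vehicle, 0.045, 0.066, -0.13 and -0.31 for 30 nmol/min, and 0.16, -0.18, -0.28 and -0.23 for 300 nmol/min.

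Spots of a probe were averaged, log2 was taken and each array's 75th percentile over those probes that all arrays detected was subtracted. Of 43653 probes, 8935 (20.5%) passed the filter of being well above background on 2 or more arrays, and 32475 were so on none. Limma 3.58.1 (lmFit and eBayes, R 4.3.3) was fitted with 1 coefficient per group, with Benjamini-Hochberg adjustment over all tested probes and a threshold of 0.05, and was tested on simulated data. Files were read with pandas 2.3.3 and numpy 2.4.6 in Python 3.11.15 and figures drawn with matplotlib 3.10.9. Member genes were matched by the gene name in the files, and other genes by names from a RefSeq table of ARS-UCD2.0. Values per array were given for genes well above background on all arrays and for the 5 with the smallest p per comparison. The number of arrays limits the precision.

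Same-numbered senktide arrays of the 2 doses lay on the same slide. They deviated together from their group means (r = 0.487, 0.494, 0.565 and 0.574). Arrays of unlike number on slide 3 did so too (r = 0.544 and 0.492). Across slides 1 and 2 the values were 0.413 and 0.417. These values therefore do not show that the numbers pair the samples, and replicate as a block is an alternative only. With vehicle the correlations were 0.12 and -0.19 for 30 nmol/min and 0.18 and -0.20 for 300 nmol/min. Those arrays share both a number and a slide. The deviations of the 2 vehicle arrays mirror each other, so these values cannot decide on pairing. Alternatives were the 75th percentile or median of all probes, quantile normalization, normexp with an offset of 50, no filter, only probes on all arrays, slide or replicate as a block, slides 1 and 2 only, the series matrix, the mean over a gene's probes and each array left out.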

Additional observations from a re-analysis of the deposited data

Results flagged for a closer look

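In 6 of 66 groups of 4 arrays (33 genes at 2 doses), 1 array stood apart from the other 3, its gap to the nearest of them filling a larger part of the group's range than Dixon's 95% critical value allows. Chance flags about 1 group in 20. For MCM4 at 300 nmol/min replicate 4 lay at -0.54, with the others between -0.90 and -0.85 (gap 0.861 of the range). For CCND3 at 300 nmol/min replicate 4 lay at -3.28, with the others between -3.02 and -3.01 (0.966). For AURKA at 30 nmol/min replicate 3 lay at -3.88, with the others between -3.48 and -3.43 (0.901). Replicate 1 at 300 nmol/min was the low array for 3 genes and was not well above background for any of them. It lay at -5.11 for MCM6, with the others between -4.10 and -3.90 (0.831), at -4.59 for CDK1, with the others between -3.18 and -3.08 (0.934), and at -5.58 for BUB1B, with the others between -4.11 and -3.86 (0.853).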

How the results depend on the processing

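No gene of the list passed in a comparison of doses or with vehicle under any setting run, except CDK4 under quantile normalization. There, members past the threshold numbered 1 at 300 and 1 at 30 nmol/min against vehicle (2.22 and 2.18). CDK4 was well above background on no vehicle array, so those calls are no support. Probes past the threshold at 300 nmol/min against vehicle numbered 1, and 0 under both scalings to all probes, without a filter, with only probes on all arrays, with slide as a block, with the replicate block, on slides 1 and 2 only and in the series matrix, 145 under quantile normalization, 107 under normexp and 0 to 50 with 1 array left out (32 and 50 without vehicle replicate 1 and 2). At 30 nmol/min against vehicle they numbered 0, with 107 under quantile normalization, 36 under normexp and 0 to 36 with 1 array left out (34 and 36 without vehicle replicate 1 and 2). Between the doses they numbered 0, with 1 under normexp and 1 with the replicate block, which changed no call of a listed gene. Against vehicle, where pairing could not be settled, the replicate block gave 0.

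Listed genes with an unadjusted p under 0.05 at 300 nmol/min against vehicle numbered 3, 5 under normexp, 0 with only probes on all arrays, 1 on slides 1 and 2 and 1 to 4 with 1 array left out (1 without vehicle replicate 2). At 30 nmol/min they numbered 3, 5 under normexp, 0 with only probes on all arrays and 1 to 5 with 1 array left out (1 without vehicle replicate 2, 5 without 300 nmol/min replicate 1). Between the doses they numbered 2, 0 under both scalings to all probes, under normexp, with only probes on all arrays and in the series matrix, 1 under quantile normalization and without a filter, and 1 to 2 with 1 array left out (1 without replicate 1 or 3 at 30 or replicate 1 at 300 nmol/min).

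For slide 3 against slides 1 and 2, probes past the threshold numbered 1598, against 8184, 8440 and 8182 when scaled to the 75th percentile or median of all probes or in the series matrix, 2887 under quantile normalization, 35325 without a filter, 178 with only probes on all arrays and 1096 to 1648 with 1 array left out. Listed genes numbered 7, against 30, 32 and 30 in those scalings, 11 under quantile normalization, 14 under normexp, 17 without a filter, 2 with only probes on all arrays and 4 to 6 with 1 array left out. Without a filter 11 of the 33 tested genes passed, and the other calls were of genes that the filter had left out. With an unadjusted p under 0.05 listed genes numbered 13, against 30, 32 and 30 in those scalings, 6 with only probes on all arrays and 10 to 13 with 1 array left out.

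Signs turned as follows in the order 75th percentile, median, series matrix. CKS2 at 300 nmol/min against vehicle went to 0.68, 0.93 and 0.68 and CCNB2 to 0.25, 0.50 and 0.25. For slide 3, CDK2 went to 0.38, 0.69 and 0.38, CCNB2 to 0.33, 0.63 and 0.32 and UBE2C to 0.63, 0.93 and 0.62, and CDKN1A to 0.22 under the median. CCNE1 went to 0.015 at 300 and 0.055 at 30 nmol/min under normexp and to 0.083 at 30 nmol/min under the median. These turns followed a shift of all tested probes (1.06 and 1.32 at 300 nmol/min, 0.95 and 1.21 at 30 nmol/min) except under normexp, where the shift was 0.09 and 0.08 and the cause was not tested. Counting positive and significant spots in place of those well above background, the mean number of listed genes detected was 31 on vehicle arrays, 34.8 at 30 and 36 at 300 nmol/min, against 18, 25.8 and 27. Signals near background limit most genes outside the 16 detected on all arrays.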
